A study of Mus musculus with 6 samples.

Results

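The genes described here are 8 transcription factor genes used to follow the specification of cortical interneurons: Nkx2-1, Maf, Npas1, Satb1, Sox6, Zeb2, Prox1 and Cux2. They were chosen by symbol, and each matched a single row among the 55416 genes of the deposited count table. All 8 passed the filter on low counts. Total RNA was sequenced from the ganglionic eminences, the ventral forebrain swellings that generate inhibitory neurons, of E13.5 mouse embryos, with ribosomal RNA depleted. There were 3 libraries of Dlx1/Dlx2 double knockout mice and 3 of wildtype littermates, the controls. The labels give no strain, sex or targeting allele and do not say which eminence (medial, lateral or caudal) was taken. They do not say whether replicates came from separate embryos, litters or pools. The p-values therefore measure only the spread between these libraries, which may be partly technical. Y-linked expression differed within each genotype, so not all libraries of a genotype came from the same material. In such bulk tissue, fewer cells of a type and less RNA per cell cannot be told apart.

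Cortical interneurons are inhibitory neurons that are born in the ventral forebrain and migrate into the cortex. The homeodomain factor NKX2-1 marks progenitors of the medial ganglionic eminence and turns on Lhx6, and LHX6 acts upstream of Sox6 and Satb1 in the young somatostatin and parvalbumin interneurons. Maf and the repressor gene Zeb2 act in the same cells after they leave the cell cycle, and Zeb2 helps direct them to the cortex rather than the striatum. Npas1 encodes a basic helix-loop-helix PAS factor of interneuron precursors and of pallidal neurons. Prox1 is better known for interneurons of the caudal eminence, and Cux2, a CUT homeodomain gene, for upper-layer cortical neurons and their precursors, so those genes are not specific to medial eminence cells. DLX1 and DLX2 are homeodomain factors expressed as ventral progenitors become neurons.

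To show the regulatory sequence next to genes that moved in opposite directions, promoter windows are printed for 2 members that rose (Nkx2-1 and Prox1) and 2 that fell (Npas1 and Zeb2). Each runs from 250 bases before to 50 bases after a RefSeq transcription start, in the direction of transcription, in the GRCm38.p6 build. All 4 lie on the minus strand, at chr12:56536859-56537158 for Nkx2-1, chr1:190170778-190171077 for Prox1, chr7:16476731-16477030 for Npas1 and chr2:45117393-45117692 for Zeb2. Capitals mark matches, on either strand, to CAAGTG (the core of NKX2 sites), TGCTGA (the core of MAF sites) or TAATTA (the homeodomain core that DLX proteins also bind).
Nkx2-1: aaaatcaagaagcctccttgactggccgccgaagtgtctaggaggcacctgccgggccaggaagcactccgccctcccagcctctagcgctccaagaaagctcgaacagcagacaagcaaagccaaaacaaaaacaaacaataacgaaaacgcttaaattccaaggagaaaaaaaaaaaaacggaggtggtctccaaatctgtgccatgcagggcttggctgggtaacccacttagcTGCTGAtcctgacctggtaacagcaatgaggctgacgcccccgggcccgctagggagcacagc
Prox1: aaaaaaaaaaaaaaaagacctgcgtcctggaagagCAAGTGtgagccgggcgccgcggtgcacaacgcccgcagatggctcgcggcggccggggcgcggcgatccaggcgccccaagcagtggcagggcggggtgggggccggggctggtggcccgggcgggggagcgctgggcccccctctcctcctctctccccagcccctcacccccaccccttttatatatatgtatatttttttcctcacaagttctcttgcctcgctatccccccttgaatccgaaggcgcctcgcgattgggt
Npas1: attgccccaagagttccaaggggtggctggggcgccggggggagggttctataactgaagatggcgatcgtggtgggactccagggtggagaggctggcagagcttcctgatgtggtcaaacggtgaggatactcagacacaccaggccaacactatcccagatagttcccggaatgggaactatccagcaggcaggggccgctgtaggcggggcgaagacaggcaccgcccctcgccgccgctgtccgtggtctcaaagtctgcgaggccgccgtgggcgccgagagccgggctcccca
Zeb2: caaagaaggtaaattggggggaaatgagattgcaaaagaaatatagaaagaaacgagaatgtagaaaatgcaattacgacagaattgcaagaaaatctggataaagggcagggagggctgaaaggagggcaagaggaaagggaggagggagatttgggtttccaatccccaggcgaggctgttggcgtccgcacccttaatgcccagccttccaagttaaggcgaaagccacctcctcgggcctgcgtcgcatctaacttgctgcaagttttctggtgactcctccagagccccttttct
The printed Nkx2-1 window held TGCTGA starting 13 bases before the start, and the printed Prox1 window held CAAGTG starting 215 bases before it. The printed Npas1 and Zeb2 windows held none of the 3 motifs. Prox1 and Zeb2 have further RefSeq starts whose windows, not printed here, also held none. The Prox1 match therefore depends on the start that was printed. RefSeq windows were found for 7 of the 8 members, at 21 starts, and were not found for Maf. None of the 21 windows held TAATTA, which 5.30% of 32534 promoter windows of this length held. CAAGTG was in 4 of the 21 windows (19.0%, against 13.49% of all windows) and TGCTGA in 3 (14.3%, against 19.5% of all windows). Windows of a gene can overlap, so a site can be counted more than once. These are descriptions of letters in short windows and say nothing of binding.

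Total counts ranged from 56618090 to 70114173 per library, and no libraries held identical counts. Dlx1 fell to 81.6 ± 10.8 CPM (a gene's reads scaled to a fixed library size with edgeR's TMM factors; SD, n = 3) from 438.9 ± 6.12 CPM, and Dlx2 to 8.68 ± 1.99 CPM from 295.7 ± 16.1 CPM, with every double knockout library below every wild-type library. The tissue carried GABAergic genes (Gad2 at 322.5 ± 3.19 CPM in wild-type libraries) and also the excitatory neuron gene Tbr1 (310.2 CPM on average in wild-type libraries and 257.5 CPM in double knockout libraries), so RNA of cortical excitatory type was present too. Genes encoded on the Y chromosome were expressed in wild-type replicate 1 and double knockout replicates 2 and 3 and nearly absent from the others, so both patterns occurred in both genotypes. The summed markers of blood, endothelial, microglial and meningeal cells each overlapped between genotypes.

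Of the 8 members, 6 differed between genotypes (edgeR quasi-likelihood, adjusted p below 0.05), where 2.68% of all 23628 tested genes did. Maf, Npas1, Zeb2 and Cux2 fell, a direction called for 1.34% of all genes, and Prox1 and Nkx2-1 rose, which was also called for 1.34%. Satb1 and Sox6 did not pass. The median absolute log2 fold change was 0.57 over the 8 members and 0.13 over all tested genes. In 7 of the 8 the groups did not overlap, as in 19.5% of all tested genes. The members were chosen with earlier results of these data known, so these counts describe them and do not set them apart from other genes.

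**Figure D1:**
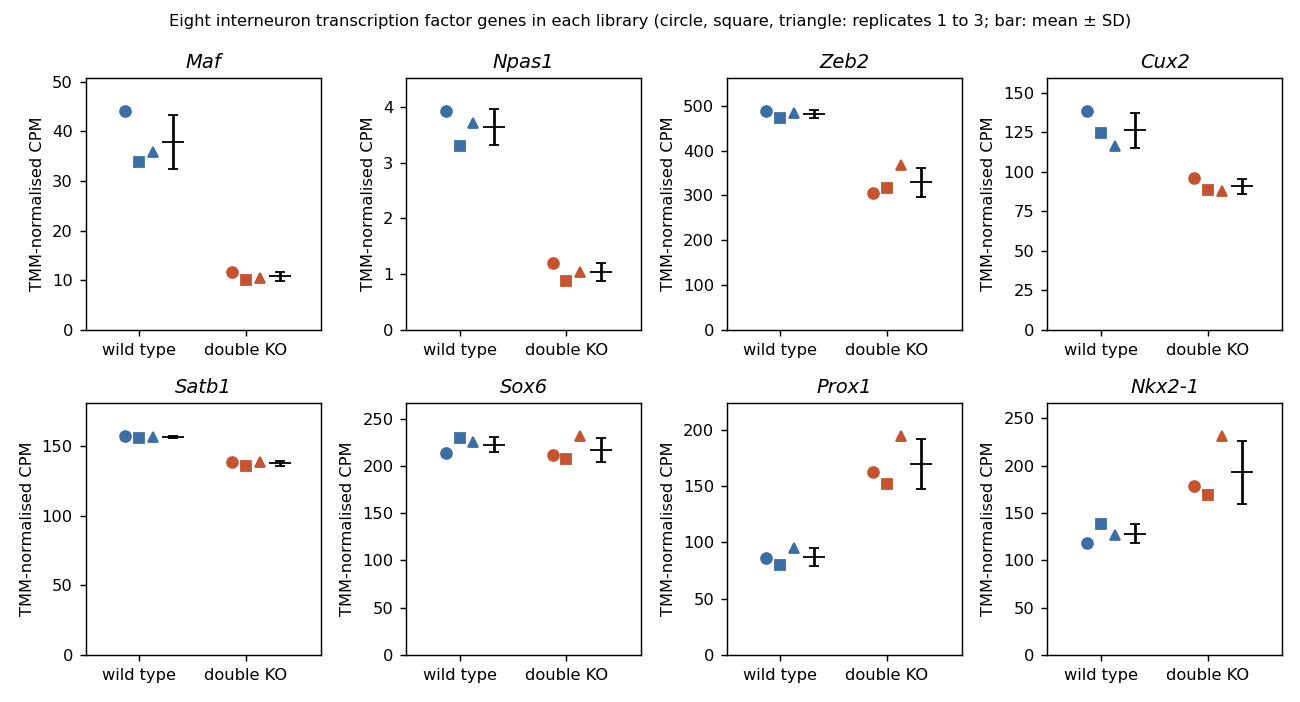
Each panel plots the TMM-normalised CPM of a gene (vertical axis, from 0) in the 3 wild-type and 3 double knockout libraries, with circles, squares and triangles for replicates 1, 2 and 3 and a bar for the mean ± SD. Maf and Npas1 lie at 28.4% and 28.6% of their wild-type means, Prox1 and Nkx2-1 lie above the wild type in all 3 double knockout libraries, and the Sox6 groups overlap.

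Nkx2-1, the identity gene of the medial eminence, rose. It was at 118.5, 138.7 and 126.8 CPM in wild-type replicates 1, 2 and 3 and at 178.9, 169.0 and 230.9 CPM in double knockout replicates 1, 2 and 3. Every double knockout library was above every wild-type library, and double knockout replicate 3 stood highest. This gave a log2 fold change of 0.59 (SE 0.114; edgeR adjusted p 0.0322). The call was not stable: without double knockout replicate 1 the edgeR adjusted p was 0.0640, and without wild-type replicates 1, 2 or 3 it was 0.147, 0.0710 or 0.114. With Y-linked expression as a covariate it was 0.108, with a log2 fold change of 0.59. Without the high double knockout replicate 3 the log2 fold change was 0.45 (edgeR adjusted p 0.0107). That library also had the lowest Nr2f2, a gene of the caudal eminence, at 114.8 CPM against 338.1 and 350.8 CPM in the other double knockout libraries, and the part of this in the Nkx2-1 result was not tested. Nkx2-1 is also a gene of the hypothalamus and preoptic area. Summed markers of that region were at 25.6 to 47.2 CPM in wild-type libraries and 137.1 to 172.3 CPM in double knockout libraries, with Otp and Hmx3 called among the 4 of 7 that could be tested. In double knockout libraries Otp carried most of that sum. Without Otp, the other 6 markers summed to 29.6, 20.3 and 35.3 CPM in wild-type replicates 1, 2 and 3. In the double knockout replicates they summed to 51.0, 51.4 and 16.1 CPM. The groups then overlapped, and double knockout replicate 3, highest in Nkx2-1, was lowest. In that library Fezf1 and Sim1 were at 6.04 and 2.96 CPM, below every other library. The 2 called markers did not drop there. Hmx3 was at 1.55, 1.26 and 0.764 CPM in wild-type replicates 1, 2 and 3 and at 7.95, 7.16 and 7.06 CPM in double knockout replicates 1, 2 and 3. Otp was at 112.9 to 121.3 CPM in double knockout libraries. The markers Rax and Nkx2-4 had at most 3 counts in any library. The part of such cells in the Nkx2-1 result was not tested.

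Prox1, a prospero-type homeodomain gene, also rose. Its levels were 86.5, 79.7 and 95.2 CPM in wild-type libraries and 162.6, 151.7 and 194.4 CPM in double knockout libraries. The lowest double knockout library lay well above the highest wild-type library. On the log2 scale the change was 0.96 (SE 0.0989, edgeR adjusted p 0.00146), and the call held in all 13 alternative fits. The antisense gene Prox1os shares 133 exonic bases with Prox1 on the opposite strand. It had 21 to 40 reads in wild-type libraries and 75 to 115 in double knockout libraries. Its log2 fold change was 1.52 (SE 0.266, edgeR adjusted p 0.0215). That call held in only 8 of the 12 alternative fits that gave Prox1os a value, with edgeR adjusted p up to 0.0702. Whether counting used strand is not given in the sources used here, so reads of this pair could have been exchanged, and Prox1 itself held 5069 to 13483 reads. Prox1 also marks lymphatic endothelium and parts of the thalamus. The lymphatic marker Lyve1 stayed at or under 0.324 CPM, and Flt4 was at 7.01 CPM and 7.06 CPM in the groups. The thalamic markers Gbx2, Tcf7l2 and Lhx9 together gave 66.8 to 78.0 CPM in wild-type and 87.2 to 114.1 CPM in double knockout libraries, and none of the 3 was called. The 3 lymphatic markers gave 46.2 to 53.6 and 61.3 to 86.2 CPM, led by Pdpn, and neither Pdpn nor Flt4 was called, while Lyve1 had too few reads to test. The part of either cell type in the Prox1 result was not tested.

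Maf, a large basic leucine zipper factor gene of migrating and maturing medial eminence interneurons, fell. It was at 44.0, 33.9 and 35.7 CPM in wild-type libraries and 11.7, 10.04 and 10.5 CPM in double knockout libraries. The groups were far apart, and 28.4% ± 2.24 of the wild-type mean remained. For such shares, here and below, the ± is the double knockout SD over the wild-type mean and leaves out the wild-type spread. The log2 fold change was -1.82 (SE 0.113, edgeR adjusted p 9.31e-05), the 30th smallest p among the 23628 tested genes. An antisense gene model that overlaps Maf had no read in any library. Maf is also expressed by microglia and macrophages. The 6 microglial markers summed to 30.0 to 37.3 CPM in wild-type libraries and 29.2 to 43.3 CPM in double knockout libraries, with none called. The part of such cells in the Maf result was not tested.

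Npas1 fell to nearly the same share of its wild-type level from a much lower one, with 28.6% ± 4.35 remaining. Npas1 had 230, 212 and 238 reads in the wild-type libraries and 78, 51 and 72 in double knockout libraries, or 3.93, 3.30 and 3.71 CPM against 1.20, 0.885 and 1.04 CPM. Despite the low counts the groups were well separated. On the log2 scale the change was -1.80 (SE 0.167, edgeR adjusted p 8.83e-04). For both Maf and Npas1 the call held in all 13 alternative fits, with log2 fold changes from -1.89 to -1.69 and from -1.92 to -1.7.

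Zeb2, the zinc finger homeodomain repressor gene, was the most counted member and fell. It was at 487.9, 472.4 and 484.4 CPM in wild-type libraries and 306.1, 316.5 and 366.9 CPM in double knockout libraries. Wild-type libraries differed by little, and all double knockout libraries lay below them. The log2 fold change was -0.55 (SE 0.0738, edgeR adjusted p 0.00626). Zeb2os, an antisense gene that shares 653 exonic bases with Zeb2, was at 2.91 ± 0.219 CPM in wild-type libraries and 2.22 ± 0.343 CPM in double knockout libraries (edgeR adjusted p 0.329). Zeb2 is also used by oligodendrocyte precursors, whose 5 markers summed to 74.1 to 76.0 CPM in wild-type and 136.7 to 177.4 CPM in double knockout libraries, with 4 called higher. Striatal projection neurons also express Zeb2, and their 8 markers summed to 1067 to 1127 CPM and 696.6 to 811.0 CPM, with 7 called lower and Isl1 called higher. The part of either cell type in the Zeb2 result was not tested.

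Cux2 fell as well. Its levels were 138.3, 124.4 and 116.4 CPM in wild-type libraries and 96.4, 88.6 and 87.8 CPM in double knockout libraries, without overlap. On the log2 scale the change was -0.48 (SE 0.0706, edgeR adjusted p 0.00965). Cux2 and Zeb2 remained called in all 13 alternative fits, with highest edgeR adjusted p of 0.0463 and 0.0337. Cux2 is also a gene of cortical excitatory precursors. The 8 cortical excitatory markers summed to 948.2 to 966.5 CPM in wild-type libraries and 746.9 to 765.4 CPM in double knockout libraries, with Neurod2 called lower, and their part in the Cux2 result was not tested.

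Satb1, a chromatin organiser gene of somatostatin interneurons, lay just outside the threshold. It was at 157.0, 155.4 and 156.8 CPM in wild-type libraries and 138.2, 135.7 and 138.5 CPM in double knockout libraries. The replicates of each genotype were tightly grouped and the groups did not overlap, with 87.9% ± 0.98 of the wild-type mean remaining. The log2 fold change was -0.19 (SE 0.0405), with a 95% interval from -0.28 to -0.09 and an edgeR adjusted p of 0.0542. DESeq2 gave an adjusted p of 0.0286, and edgeR gave 0.0478 without double knockout replicate 3 and 0.0468 when genes needed a mean of 1 CPM. The gene models Gm6934 and Gm36931 overlap Satb1 by 128 and 156 exonic bases, with on average 41.0 and 125.2 reads per library against at least 7824 for Satb1.

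Sox6, an HMG-box gene needed for the placing of medial eminence interneurons, showed no detectable difference. It was at 213.7, 229.8 and 225.0 CPM in wild-type libraries and 211.8, 207.8 and 231.6 CPM in double knockout libraries, and the groups overlapped. On the log2 scale the change was -0.04 (SE 0.0579), with a 95% interval from -0.17 to 0.09 and an edgeR adjusted p of 0.867. Sox6 is also expressed in cycling progenitors and oligodendrocyte precursors. Summed markers of dividing ventral progenitors were at 2435 to 2826 CPM in wild-type libraries and 2878 to 3614 CPM in double knockout libraries, with Hes5 the only marker of 7 called, and postmitotic neuron markers at 5073 to 5542 and 4103 to 4825 CPM, with none of 5 called. Their part in the levels of these members was not tested.

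Within libraries of like Y-linked expression each gene except Sox6 kept its direction. Each such comparison has a single library on one side, so it has no test. Among the Y-expressing libraries (1 wild type, 2 double knockout) the log2 ratio of double knockout to wild type was -2.10 for Maf, -2.03 for Npas1, -0.51 for Zeb2, -0.65 for Cux2, -0.19 for Satb1, 0.04 for Sox6, 1.0 for Prox1 and 0.76 for Nkx2-1. Among the others (2 wild type, 1 double knockout) the log2 ratios were, in the same order, -1.57, -1.54, -0.64, -0.32, -0.18, -0.10, 0.89 and 0.43.

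To compare levels between genes, CPM was divided by exon length in kb from GENCODE M21. In the wild type Nkx2-1 was highest on this scale, at 45.0 ± 3.59 CPM per kb, followed by Zeb2 at 24.1 ± 0.409, Sox6 at 15.02 ± 0.56, Cux2 at 12.5 ± 1.1, Prox1 at 10.4 ± 0.927, Satb1 at 8.22 ± 0.0447, Maf at 4.60 ± 0.658 and Npas1 at 1.21 ± 0.106 CPM per kb. The library ranges of neighbours in this order did not overlap. In the double knockout Prox1 moved from the fifth place to the second, at 20.2 ± 2.64 CPM per kb, and its range overlapped that of Zeb2, at 16.5 ± 1.63, which in turn overlapped that of Sox6, at 14.6 ± 0.86. Nkx2-1 remained highest at 67.9 ± 11.7 CPM per kb, and Maf (1.31 ± 0.103) and Npas1 (0.346 ± 0.0527) remained lowest. All 8 genes are on the minus strand in that annotation, on chromosomes 1, 2, 5, 7 (Npas1 and Sox6), 8, 12 and 17.

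**Figure D2:**
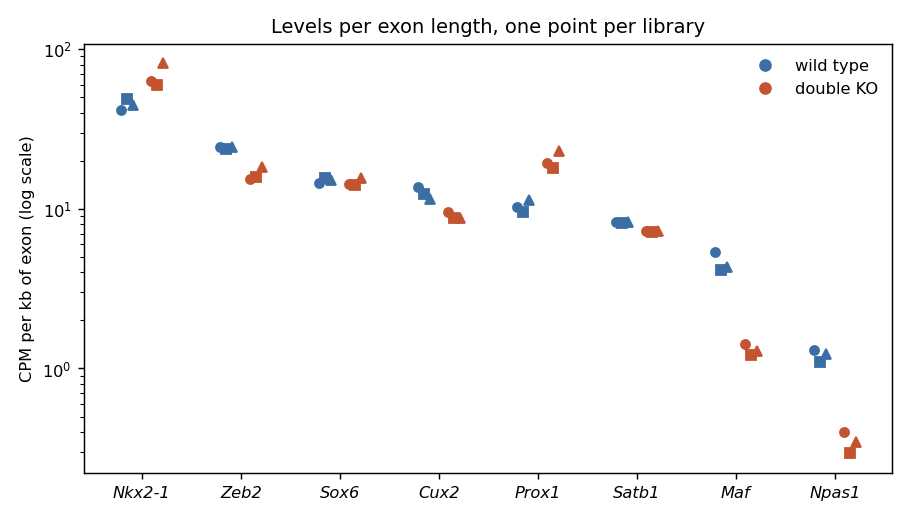
CPM per kb of exon on a log scale for each member, ordered by wild-type mean, with 1 point per library (blue, wild type; orange, double knockout). Nkx2-1 is highest in both genotypes and Prox1 rises from about 10.4 to 20.2 CPM per kb, past Cux2 and Sox6.

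Gad1 and Gad2, which encode the enzymes that make GABA, fell by 1.47 and 1.38 on the log2 scale in double knockout libraries. The within-library ratio of a gene's reads to their summed reads therefore goes up for a gene that does not change: over all 23628 tested genes the median log2 difference in this ratio was 1.40, 99.5% of genes were higher and in 93.8% the groups did not overlap. The same log2 difference was 1.36 for Sox6, 1.22 for Satb1, 0.93 for Cux2 and 0.85 for Zeb2, each below that median. It was 1.98 for Nkx2-1 and 2.36 for Prox1, above the median. For Maf and Npas1 it was -0.41 in each. An exact two-sided permutation test gave p = 0.10 for each of these 8 ratios, the smallest that 3 against 3 libraries allow, and 0.117 after Benjamini-Hochberg adjustment over the 14 ratios computed here. With this shift in nearly every gene, those p-values say nothing particular of the members.

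Paralogues of the members were called in both directions. Of 18 listed paralogues 14 were tested, of which 2 were higher, 1 was lower and 11 did not pass the edgeR test. The median log2 fold change of the 14 was 0.15 against 0.00 over all tested genes, where each direction was called for 1.34%. Zeb1 moved opposite to Zeb2, from 155.9 ± 6.41 to 230.2 ± 12.6 CPM (log2 fold change 0.56, SE 0.0567, edgeR adjusted p 0.00139), and was called in all 13 alternative fits. The log2 ratio of Zeb2 to Zeb1 was 1.7, 1.61 and 1.57 in the wild-type libraries and 0.45, 0.51 and 0.58 in double knockout libraries, a difference of -1.11 with no overlap (exact permutation p 0.10). Zeb1 shares 198 exonic bases with the opposite-strand gene model Gm10125, so its counts are uncertain to that extent.

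Sox13 rose from 15.2 ± 0.373 to 20.03 ± 0.822 CPM (edgeR adjusted p 0.0241), but lost the call in 7 of the 13 alternative fits, all of which kept its direction. Sox5, the nearest paralogue of Sox6, was at 207.5 ± 9.91 and 220.5 ± 19.7 CPM (edgeR adjusted p 0.702), and the Sox6 to Sox5 ratios of the groups overlapped. Npas3, at 94.8 ± 2.28 and 94.3 ± 2.22 CPM, and Cux1, at 341.4 ± 14.9 and 354.4 ± 18.9 CPM, did not pass the edgeR test (adjusted p 0.974 and 0.811). The Npas1 to Npas3 and Cux2 to Cux1 ratios were lower without overlap, by -1.80 and -0.53 on the log2 scale (exact permutation p 0.10 for each). Nkx2-4, Nkx2-5, Nkx2-6 and Nrl had too few reads to test.

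**Figure D3:**
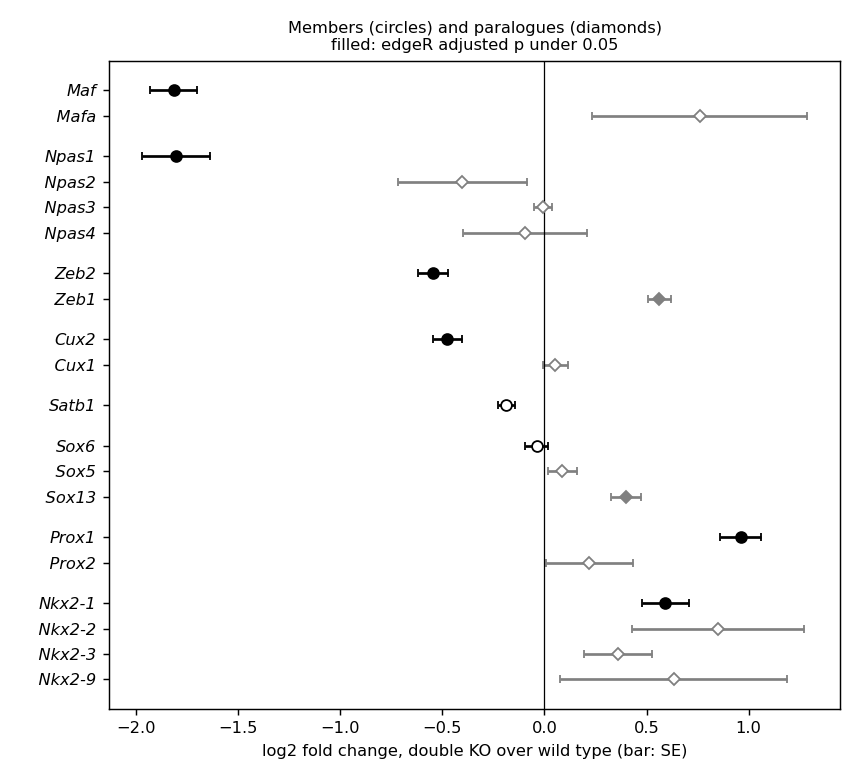
Log2 fold changes (double knockout over wild type, bar: SE) of the members (circles) and of tested paralogues (diamonds; not every tested one is drawn), filled where the edgeR adjusted p was under 0.05. Zeb2 and Zeb1 lie on opposite sides of 0, at -0.55 and 0.56.

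Other genes of the medial eminence programme were called lower more often than higher. Of 22 listed genes, 11 were lower, 2 higher and 9 did not pass the edgeR test. Over all tested genes 1.34% were called lower and 1.34% higher. The median log2 fold change of the list was -0.60, against -0.002 over all tested genes. The list was chosen with earlier results of these data known, so these counts only describe it. Crabp1, a retinoic acid binding protein gene of migrating interneurons, fell the most, from 10.3 ± 1.35 to 1.5 ± 0.506 CPM (log2 fold change -2.77, SE 0.227, edgeR adjusted p 4.55e-04). The homeobox gene Lhx8 and the neuregulin receptor gene Erbb4 had log2 fold changes of -1.22 and -1.09. Crabp1, Lhx8 and Erbb4 were among 5 genes called in all 13 alternative fits, and the other 8 called genes lost the call in at least 1 of them. Lhx6, the factor gene that NKX2-1 turns on, went down while Nkx2-1 went up. It was at 172.0 ± 6.74 CPM in wild-type libraries and at 88.9, 75.5 and 125.4 CPM in double knockout replicates 1, 2 and 3, with a log2 fold change of -0.83 (SE 0.157, edgeR adjusted p 0.0298). Its edgeR adjusted p rose to at most 0.118 in the 6 alternative fits that lost it, which were those without wild-type replicates 1, 2 or 3, without double knockout replicates 1 or 2, and with the Y-linked covariate. The 2 that rose were Zic1 (log2 fold change 0.75) and the hedgehog receptor gene Ptch1 (0.30). Shh, which acts upstream of Nkx2-1, and its target Gli1 were at 8.64 ± 1.93 and 8.30 ± 1.93 CPM and at 7.49 ± 1.1 and 7.20 ± 1.41 CPM (edgeR adjusted p 0.941 and 0.929).

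Of 17 tested genes of the caudal and lateral eminence programme, to which Prox1 is closest, 4 were lower, 1 was higher and 12 did not pass. Over all tested genes 1.34% were called in each direction. The median log2 fold change of this list was -0.15, and the list too was chosen with earlier results known. Sp8 and Adarb2, markers of caudal and lateral eminence interneurons, fell while Prox1 rose. Sp8 went from 39.95 ± 2.56 to 12.2 ± 3.91 CPM (log2 fold change -1.72, SE 0.21, edgeR adjusted p 0.00362) and Adarb2 from 55.5 ± 6.63 to 19.8 ± 2.62 CPM (log2 fold change -1.49, SE 0.116, edgeR adjusted p 3.47e-04), both in all 13 alternative fits. Scgn and Meis2 had log2 fold changes of -1.48 and -0.45, and Gsx2, a progenitor gene, rose by 0.64 on the log2 scale. Of these, Scgn, Meis2 and Gsx2 each lost the call in at least 1 alternative fit. Nr2f1 was at 306.1 ± 6.79 and 360.0 ± 34.7 CPM (edgeR adjusted p 0.189). Of 8 GABAergic neuron genes, likewise chosen with earlier results known, 7 were lower and none higher, beside the 1.34% called lower over all tested genes.

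**Figure D4:**
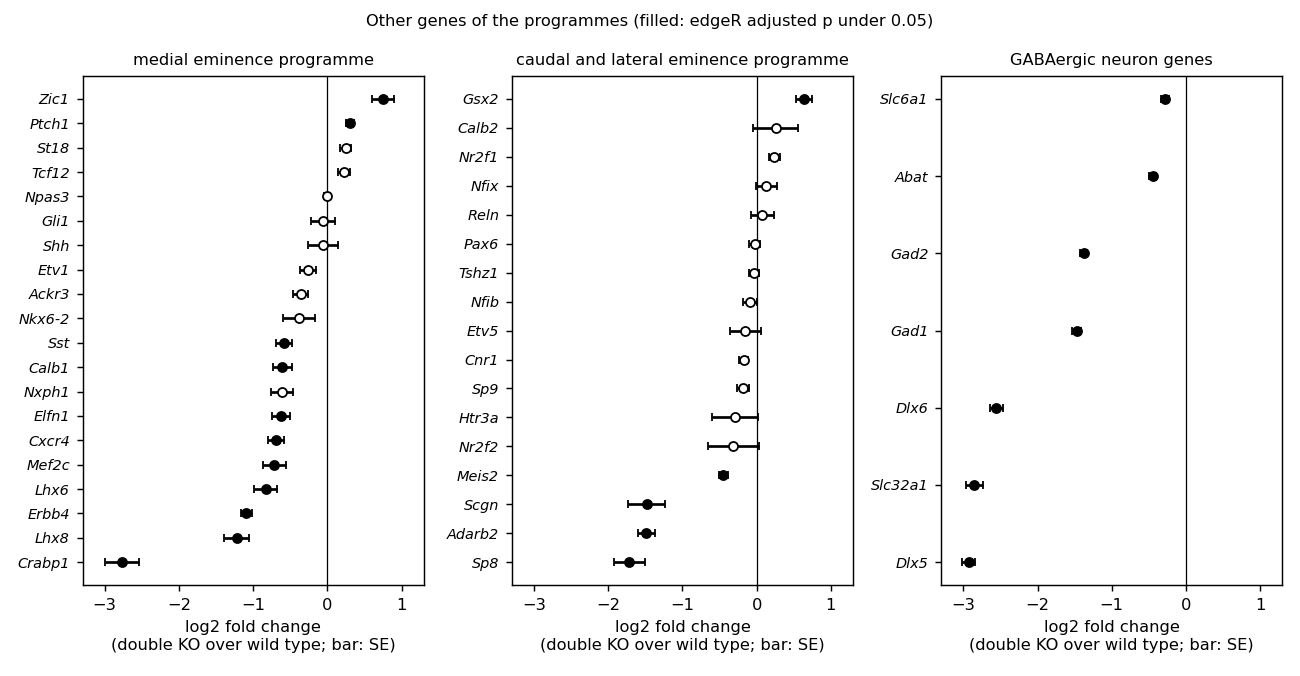
Log2 fold changes (double knockout over wild type, bar: SE) of tested genes of 3 lists (not every tested gene is drawn), filled where the edgeR adjusted p was under 0.05. Lhx6 and Lhx8 lie at -0.83 and -1.22 in the medial list, and Sp8 and Adarb2 at -1.72 and -1.49 in the caudal and lateral list.

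The genes whose library profile was most like that of each called member were found by the root-mean-square difference between log2 values centred on the wild-type mean, over 6 libraries and 12361 genes averaging 5 CPM or more. For Npas1 the nearest gene was Maf (difference 0.0943 on the log2 scale), followed by Slc18a2, the vesicular monoamine transporter gene (0.17). For Maf they were Zfp503, a striatal transcription factor gene (0.159), and Tac1, the substance P precursor gene (0.159). Npas1 lay nearer to Maf but averaged under 5 CPM, so it was not a candidate. Zeb2 was nearest to Bcl11b, a zinc finger gene of striatal and deep-layer cortical neurons (0.0297), and to Sema7a (0.0547). Prox1 was nearest to the zinc finger gene Sall3 (0.067) and to Btg2, an antiproliferative gene (0.0882), and Cux2 to Prkcd (0.0328) and Cyria (0.0464). For Nkx2-1 they were AW011738 (0.0623) and Sfta3-ps (0.0655). Libraries of a genotype share that genotype, so likeness on this measure includes a change of like size.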

How the data were processed

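The authors deposited raw gene counts in a single table, a column per library. Per the labels' protocols the library kit is stranded. The submitters' processing notes name featureCounts and the GRCm39 build. The aligner, annotation release and strand setting are not given in the sources used here.

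The filterByExpr function of edgeR 4.0.16 under R 4.3.3 (minimum count 10, minimum total count 15) kept 23628 of 55416 genes. TMM (trimmed mean of M values) factors set library scaling. All kept genes entered a quasi-likelihood test in edgeR, with Benjamini-Hochberg adjustment and a call at an adjusted p under 0.05. CPM values are TMM-normalised. A count of 3 corresponds to 0.0428 to 0.053 CPM when scaled to a library's total count alone, without TMM factors. Ratios used a pseudocount of 0.5 per gene. Exon lengths and overlaps came from GENCODE M21 (GRCm38), which held 94.0% of the identifiers. Promoters came from RefSeq.

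The 8 members, the lists, the motifs and the rule for named genes (all members, called paralogues, up to 4 called genes per list and direction, and the 2 most similar genes per called member) were chosen with earlier results of these data known. Uncalled genes, neighbouring genes and those lists' further genes were named after their values were seen. Alternatives were DESeq2 1.42.0, DESeq2 size factors in edgeR, total count scaling, an unfiltered table, a mean of at least 1 CPM, a replicate block, a Y-linked covariate (4 genes), and each library left out. Some genes of the lists count in the totals but are not reported here by name.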

Additional observations from a re-analysis of the deposited data

How the results depend on the processing

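Maf, Npas1, Zeb2, Prox1 and Cux2 kept their direction and their call in all 13 alternatives, and Sox6 stayed uncalled in all 13. With the Y-linked covariate Nkx2-1 was no longer called (log2 fold change 0.59), which left 1 member higher, 6 genes of the medial eminence programme called (0 higher, 6 lower), 3 of the caudal and lateral programme (0 higher), 1 paralogue higher and 359 of all tested genes. Satb1 became called with a filter at a mean of 1 CPM (-0.17) and with DESeq2 (-0.18), and DESeq2 called 1162 genes in all. Total count scaling raised the share of calls that were higher from 50% to 60.4% of 646 and moved the median of all genes by 0.03. Leaving out each library in turn gave a log2 fold change of 0.45 to 0.68 for Nkx2-1 and -0.19 to -0.18 for Satb1. It gave 5 to 7 members called (1 to 2 higher, 4 to 5 lower), 6 to 15 medial programme genes (0 to 2 higher, 6 to 13 lower), 3 to 7 caudal and lateral programme genes (0 to 2 higher, 2 to 5 lower), 2 to 4 paralogues (1 to 2 higher, 1 to 2 lower) and 309 to 749 of all tested genes. Npas3 changed sign around 0, with log2 fold changes of 0.0219 with total count scaling, 0.0033 without a filter, 0.0047 with the filter at a mean of 1 CPM, and 0.0017 to 0.0149 (0.0059 without wild-type replicate 3) in 3 fits without a library (the range over all 6 was -0.0271 to 0.0149). The within-library ratios kept their direction with a pseudocount of 5 and without each library. For all of these, the cause was not tested.

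The replicate numbers were used as a replicate block in 1 alternative, which called 690 genes, the same 6 members, and 1 paralogue higher in place of 2. Same-numbered libraries correlated at -0.247, -0.0264 and 0.0107 in their deviations from the group means over 16487 genes, so the numbers were not taken to pair the samples, and wild-type replicate 1 correlated best with double knockout replicate 2 (0.262). Groups of 3 limit every test here, and Npas1, with 51 to 238 reads, is the least precisely counted member.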

Other observations

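The genes next to the members were mostly not called. Of the 32 nearest tested neighbours (2 on each side of each member in GENCODE M21), 3 were called by edgeR, all higher, against 2.68% of all tested genes. They were Prox1os and 2 genes beside Nkx2-1. Sfta3-ps, a pseudogene 2.53 kb from Nkx2-1, was at 38.7, 44.7 and 38.5 CPM in the wild type and 57.5, 59.0 and 73.8 CPM in the double knockout, highest in replicate 3 as Nkx2-1 was (log2 fold change 0.64, SE 0.104, edgeR adjusted p 0.0150). Gm47720, 31.1 kb away on the same side, was at 1.59, 1.99 and 2.01 CPM and at 3.81, 3.45 and 3.34 CPM (log2 fold change 0.92, SE 0.149, edgeR adjusted p 0.0147). Gm26973, whose span overlaps that of Nkx2-1, was not called (log2 fold change 0.72, SE 0.155, edgeR adjusted p 0.0523). Sfta3-ps and Gm47720 each lost the call in 3 of the 13 alternatives, with adjusted p up to 0.0741 and 0.0659 in edgeR. Prox1os kept the call in 8 of the 12 alternatives that gave it a value. No neighbour of Maf or Npas1 was called, and the tested neighbours of Maf lay at least 263.8 kb from it.

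Double knockout replicate 3 differed from the other double knockout libraries in several regional genes. Besides Nr2f2, Fezf1 was at 6.04 CPM there against 22.3 and 27.1 CPM in replicates 1 and 2, Sim1 at 2.96 against 20.7 and 16.9 CPM, and Lhx9 at 31.8 against 58.7 and 62.1 CPM. Lhx6, Lhx8, Nkx2-1, Prox1, Zeb2, Sox6 and, narrowly, Satb1 were highest of the double knockout libraries in that replicate. Maf, Npas1 and Cux2 were not.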
